A study of Mus musculus with 8 samples.

Results

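The transcripts described here encode the G1 kinase module, a set of 9 genes: the kinases Cdk6, Cdk4 and Cdk2, the D-type cyclins Ccnd1, Ccnd2 and Ccnd3, and the pocket proteins Rb1, Rbl1 and Rbl2. They were taken as named genes, each through the probe set that carried only that symbol, out of 19937 genes measured by such a probe set on Affymetrix MoGene 1.0 ST arrays. All 9 were measured, each by 1 probe set. The samples were mouse B-lymphoid cells of strain SW129/C57BL/6J. There were 4 samples labelled c-jun knock out and 4 labelled wild type, with 1 array per sample. The series asks how the AP-1 transcription factor c-JUN acts on Cdk6 in lymphoid leukemia driven by the fusion kinase BCR-ABL. The labels do not give a time point, an age or a treatment, the part of Jun that was deleted, how it was deleted, or the presence of BCR-ABL in these cells. Whether replicates were separate clones, cultures or animals is likewise not stated, so a p-value here reflects only how far these samples lie apart, and that scatter may be technical. Sample titles fall into an RO and a D/F series, which the labels do not call batches, and each holds 2 samples of either genotype. Replicates 1 and 2 of each genotype are RO samples, and replicates 3 and 4 are D/F samples.

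D-type cyclins are made in response to growth signals and bind CDK4 or CDK6. The active kinases phosphorylate the pocket proteins, pRB (Rb1), p107 (Rbl1) and p130 (Rbl2), which otherwise hold E2F transcription factors in check, and cyclin E with CDK2 then completes the step into S phase. CDK6 is prominent in blood cells and CDK4 in most tissues, cyclin D3 is needed by precursor B cells, and CDK6 also acts in transcription complexes apart from its kinase role.

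The series concerns methylation at the 5' end of Cdk6, which expression arrays do not measure, so the start of Cdk6 is shown here for the CpG sites it holds. RefSeq windows of 300 bases (GRCm38.p6, 250 bases before the start of a gene and 50 after) were at hand for 6 of the 9 genes (all but Ccnd1, Ccnd2 and Rb1), with 7 windows in all because Ccnd3 has 2. The Cdk6 window, chr5:3343643-3343942 on the plus strand, held 27 CpG sites, shown in capitals, against a median of 7 over 32851 windows of all genes, of which 15.5% held at least as many. Such a count was not particular to Cdk6 among the members. The other windows held 29 (Rbl1), 28 and 15 (Ccnd3), 25 (Cdk2), 22 (Cdk4) and 14 (Rbl2).

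Cdk6 start, CpG in capitals: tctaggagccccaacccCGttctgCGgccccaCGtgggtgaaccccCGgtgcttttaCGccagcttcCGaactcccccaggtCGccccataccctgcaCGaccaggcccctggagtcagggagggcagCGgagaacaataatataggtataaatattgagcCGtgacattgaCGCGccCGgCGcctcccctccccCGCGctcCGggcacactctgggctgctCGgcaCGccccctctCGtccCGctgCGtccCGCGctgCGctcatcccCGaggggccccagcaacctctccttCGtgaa

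The AP-1 motif TGANTCA, read on both strands, was not among the letters of this window or of the other 6 member windows, and neither was the related motif TGACGTCA. The first is held by 7.81% of all windows and the second by 1.79%. The window of Cdk4, the partner kinase that shares the D cyclins, is shown for its E-boxes (CACGTG, a palindrome), the motif bound by MYC and related factors. It lies at chr10:127063285-127063584 on the plus strand and held 4 E-boxes, a number reached in 0.0244% of all windows. Cdk6 had 1 E-box, and 7.15% of all windows have at least 1.

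Cdk4 start, E-boxes in capitals: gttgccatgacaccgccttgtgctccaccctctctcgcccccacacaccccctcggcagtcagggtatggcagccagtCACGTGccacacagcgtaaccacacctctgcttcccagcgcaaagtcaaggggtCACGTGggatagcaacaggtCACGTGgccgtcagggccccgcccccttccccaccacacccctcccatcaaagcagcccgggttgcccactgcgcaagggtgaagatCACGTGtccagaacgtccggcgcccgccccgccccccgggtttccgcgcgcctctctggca

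Among the pocket proteins, the Rbl1 window (chr2:157204485-157204784, minus strand) held 1 E2F motif, searched as TTTCGCGC or TTTGGCGC on both strands. It is held by 0.813% of all windows and by 0 of the other 6 member windows. These matches describe letters only, and no binding was measured.

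Rbl1 start, E2F motif in capitals: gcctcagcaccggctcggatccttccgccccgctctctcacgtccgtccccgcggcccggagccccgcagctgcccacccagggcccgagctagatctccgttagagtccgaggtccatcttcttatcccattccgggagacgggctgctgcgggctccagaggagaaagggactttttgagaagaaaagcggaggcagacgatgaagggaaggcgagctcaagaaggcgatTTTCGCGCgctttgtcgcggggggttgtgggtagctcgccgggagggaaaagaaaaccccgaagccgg

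The values are log2 signals, scaled by the authors so that each array has the same trimmed mean, and array medians ran from 6.93 to 7.42. Signals of different probe sets are not on a common scale, so levels are compared between samples and not between genes. Jun, the targeted gene, lay between 6.46 and 7.02 in knockout samples and between 8.77 and 10.55 in wild-type samples, without overlap. Each knockout signal of Jun was below the median of its array. The log2 difference of Jun was -2.38 (SE 0.32), and it was not called over all genes (limma adjusted p = 0.106). Of 11 measured B-lineage markers, 10 lay above the array median on all 8 arrays, with list means of 11.61 to 11.88 in knockout and 11.52 to 11.93 in wild-type samples. The exception was Rag1, a recombinase of early B cells, which ranged from 8.003 to 10.43 in knockout and from 6.17 to 9.80 in wild-type samples. Of the markers of other cells, 1 of 8 myeloid (Lyz2), 1 of 8 T and NK (Cd3e), 1 of 7 erythroid and megakaryocyte (Itga2b) and 4 of 8 stromal and endothelial markers (Col1a1, Col1a2, Col3a1 and Pecam1) lay above the median on all arrays. The list means were 7.11 to 7.25 in knockout and 6.90 to 7.86 in wild-type samples for myeloid markers, and 6.40 to 6.99 in knockout and 6.42 to 7.52 in wild-type samples for T and NK markers. They were 6.56 to 7.10 in knockout and 6.82 to 7.20 in wild-type samples for the erythroid list, and 7.24 to 7.61 in knockout and 7.30 to 7.82 in wild-type samples for the stromal list. The NK receptor gene Klrb1c was at 8.93 in knockout replicate 4, the sample of lowest Cdk6, and at 10.54 in wild-type replicate 3. It was at 5.73 to 6.78 in the other 6 samples. Ncr1, another gene of the T and NK list, was not raised there, at 6.07 in knockout replicate 4 and 6.44 in wild-type replicate 3. Ncr1, Cd3d, Cd3g and Cd4 lay below the array median on all 8 arrays. Fcgr3, a myeloid Fc receptor gene, was at 6.995, 7.55, 7.85 and 8.12 in knockout and 7.30, 9.39, 10.09 and 7.80 in wild-type samples, high in wild-type replicates 2 and 3 (log2 difference -1.01, SE 0.49). Itgam, Csf1r and Cd14 of the same list lay below the array median on all 8 arrays. Lyz2, the lysozyme gene, was at 10.63, 10.64, 9.24 and 7.44 in knockout and 8.33, 8.66, 9.93 and 8.35 in wild-type samples, highest in the RO knockout samples. Lower means in knockout samples were found for 6 of 8 myeloid, 8 of 8 T and NK, 7 of 7 erythroid and 7 of 8 stromal markers. A lower mean was found in 72.0% of all genes but in 56.0% of those above the median signal, so it was commoner at low signals. Most of these markers had low signals, so 72.0% is too low a background for them. The part of such cells in the results below was not tested.

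Cdk6 was the member that separated the genotypes. Its log2 signals were 9.69, 8.66, 10.11 and 6.79 in knockout replicates 1 to 4, against 11.11, 11.002, 11.50 and 11.58 in wild-type replicates 1 to 4. Every knockout sample lay below every wild-type sample, and the knockout samples were also far apart from each other. The mean was 8.81 ± 1.48 in knockout and 11.30 ± 0.29 in wild-type samples (SD, n = 4 each), a 5.59-fold lower level on the log2 scale of the fit (log2 difference -2.48, SE 0.56, 95% interval -3.70 to -1.26). That SE and interval assume the same variance in both genotypes, drawn in part from other genes, although the SDs of Cdk6 differed widely. With other variance models the SE was 0.57 (eBayes without trend) and 0.80 (robust eBayes), so the interval may be too narrow. By size the Cdk6 log2 difference was the largest among the 19937 genes. It did not pass the limma test over all genes (adjusted p = 0.878), in which 0.00502% of all genes were called, and 0 of the 9 members were called. At an unadjusted limma p under 0.05, Cdk6 was the single member called, against 2.25% of all genes (1.72% with knockout lower). That background rests on wild-type replicate 4: 449 genes had such a p with all arrays and 4863 without it, where Cdk6 was still the single member. In other settings it was not alone. Without wild-type replicate 1 there were 2 such members (Cdk6 and Ccnd1). RO samples alone gave 2 (Cdk6 and Ccnd2), and D/F samples alone gave 3 (Cdk6, Ccnd1 and Ccnd2). With all samples Cdk6 was also the single member whose genotypes did not overlap, against 1.29% of all genes (1.03% with knockout lower). These arrays measure RNA of a whole sample, so fewer cells with Cdk6 and less Cdk6 RNA per cell cannot be told apart.

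The knockout samples ranged over 3.31 log2 units for Cdk6, 9.95-fold, and the wild-type samples over 0.58, 1.49-fold. The SD in knockout was 5.18 times that in wild type, a ratio reached by 0.742% of the genes whose mean signal lay above the median. Knockout replicate 4 was the lowest at 6.79, below the array median of 7.22, where the size of a difference is uncertain. Knockout replicates 1 and 3 were 9.69 and 10.11, nearer to the lowest wild-type sample at 11.002 than to knockout replicate 4. Without knockout replicate 4 the difference was -1.70, and without knockout replicate 3 it was -3.03. RO samples alone gave a difference of -1.88, and D/F samples alone gave -3.09. Their limma interaction was -1.21 (SE 1.09, adjusted p = 0.716). Without knockout replicate 3, which leaves knockout replicate 4 as the lone D/F knockout sample, assumed to vary like the other groups, it was -2.87 (limma adjusted p = 0.0421). The limma fit to the D/F samples alone called Cdk6 (adjusted p = 0.000238), but with an SE of 0.47 borrowed largely from other genes. From the 4 D/F samples themselves the SE was 1.66.

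Cdk4, the kinase that shares its cyclins and substrates with CDK6, was nearly level. Its log2 signals were 13.47, 13.41, 13.61 and 13.56 in knockout and 13.77, 13.58, 13.54 and 13.34 in wild-type samples. The genotypes overlapped, and all 8 samples lay within 0.43 log2 units, or 1.35-fold. The log2 difference was -0.05 (SE 0.12, 95% interval -0.31 to 0.22), so the interval excludes a difference of the size of the Cdk6 estimate. Cdk2, the partner of the E and A cyclins, was the steadiest member, with 11.16, 11.32, 11.14 and 11.22 in knockout and 11.04, 11.20, 11.30 and 11.15 in wild-type samples. It varied by 1.22-fold over all samples, and 2.51% of the genes above the median signal had an SD as small or smaller. Its log2 difference was 0.04 (SE 0.13, 95% interval -0.24 to 0.31).

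**Figure D1:**
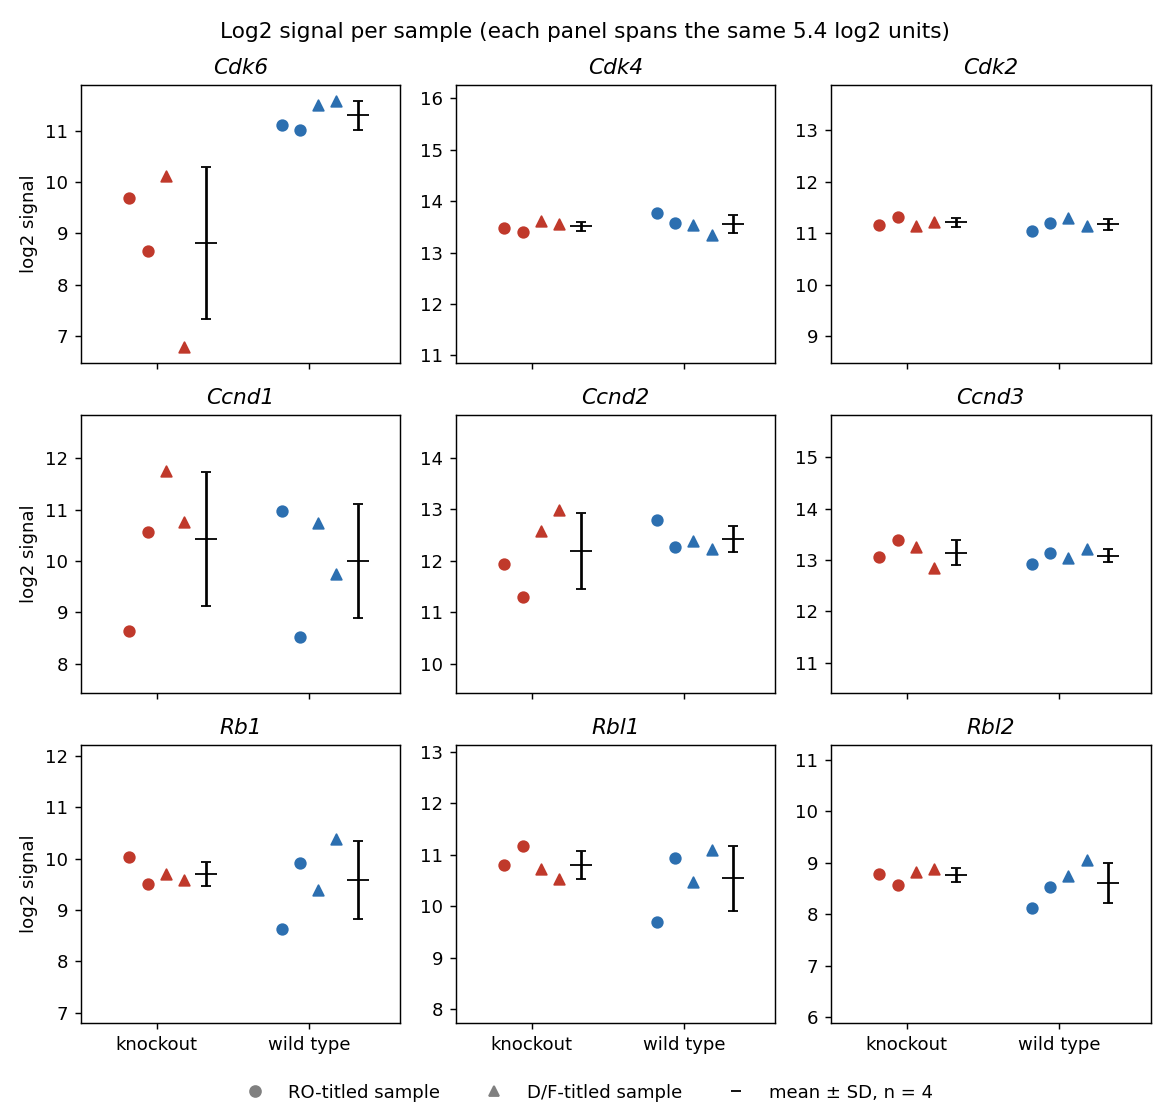
Log2 signal of each of the 9 genes (vertical axis, 5.4 log2 units in every panel) in 4 knockout and 4 wild-type samples (horizontal axis). Circles are RO and triangles D/F samples, bars are mean ± SD; Cdk6 is the panel without overlap, at 6.79 to 10.11 in knockout and 11.002 to 11.58 in wild-type samples, while Cdk4 and Cdk2 are nearly flat.

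The Cdk6 signal was then set against the Cdk4 signal within each sample, which removes whatever raised or lowered both on an array. The within-sample difference Cdk6 minus Cdk4 was -3.78, -4.75, -3.50 and -6.76 in knockout samples, against -2.67, -2.57, -2.04 and -1.76 in wild-type samples. The genotypes did not overlap. The mean was -4.70 ± 1.48 in knockout and -2.26 ± 0.43 in wild-type samples (SD, n = 4 each), a difference of -2.44 between genotypes, close in size to that of Cdk6 alone. No p is given for it, because Cdk6 and Cdk4 were put side by side with the result for Cdk6 known. Set against Cdk2, Cdk6 differed by -2.52, and against Ccnd3 by -2.54, both without overlap. Against Ccnd1 it differed by -2.91, but there the genotypes overlapped. Against Ccnd2, Rb1, Rbl1 and Rbl2 the genotypes did not overlap. Between genotypes Cdk6 minus Cdk4 differed by -1.64 for RO samples and by -3.23 for D/F samples. Such a value shows that the transcripts differed unequally, not that Cdk4 was the same in both genotypes.

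The D cyclins varied between samples more than between genotypes. Ccnd3, the D cyclin of developing lymphocytes, was even, with 13.06, 13.40, 13.26 and 12.84 in knockout and 12.92, 13.14, 13.05 and 13.22 in wild-type samples. The knockout samples held both the highest and the lowest value, and the log2 difference was 0.06 (SE 0.14, 95% interval -0.25 to 0.36). Ccnd2, a D cyclin induced by growth factors and cytokines, had 11.93, 11.28, 12.58 and 12.98 in knockout and 12.79, 12.27, 12.39 and 12.22 in wild-type samples. Both RO knockout samples lay below every wild-type sample. One of the D/F knockout samples was the highest of all 8, and the mean difference was -0.22 (SE 0.27, 95% interval -0.81 to 0.37). Ccnd1, a D cyclin of adherent and many cancer cells and a described target of AP-1, spanned 9.33-fold over the 8 samples. Its signals were 8.64, 10.57, 11.75 and 10.76 in knockout and 10.97, 8.53, 10.74 and 9.76 in wild-type samples. Knockout replicate 1 and wild-type replicate 2, both RO samples, were the lowest, and the log2 difference of 0.43 was smaller than its SE of 0.55 (95% interval -0.77 to 1.63). The value turned on single arrays, with 1.03 when wild-type replicate 1 was left out (limma adjusted p = 0.9999) and 0.056 when wild-type replicate 2 was left out (limma adjusted p = 0.974). D/F samples alone gave 1.003 (limma adjusted p = 0.0834), but with an SE of 0.25 borrowed largely from other genes. From the D/F samples themselves the SE was 0.70. A range as large as that of Ccnd1 was found in 1.22% of the genes above the median signal.

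Between cyclins, the within-sample difference Ccnd2 minus Ccnd3 was -1.13, -2.11, -0.68 and 0.14 in knockout and -0.14, -0.87, -0.66 and -1.004 in wild-type samples. The groups overlapped, with means of -0.95 ± 0.94 in knockout and -0.67 ± 0.38 in wild-type samples (SD, n = 4 each). For RO samples the genotypes differed by -1.11, whereas for D/F samples they differed by 0.56, of the opposite sign. Ccnd1 minus Ccnd3 was -4.42, -2.82, -1.51 and -2.08 in knockout and -1.95, -4.62, -2.30 and -3.47 in wild-type samples. Knockout replicate 1 and wild-type replicate 2, both RO samples, were the samples where Ccnd1 was lowest against Ccnd3. Ccnd1 minus Ccnd2 was -3.29, -0.71, -0.83 and -2.22 in knockout and -1.81, -3.74, -1.65 and -2.46 in wild-type samples. These groups overlapped as well, with means of -1.76 ± 1.23 in knockout and -2.42 ± 0.95 in wild-type samples (SD, n = 4 each).

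**Figure D2:**
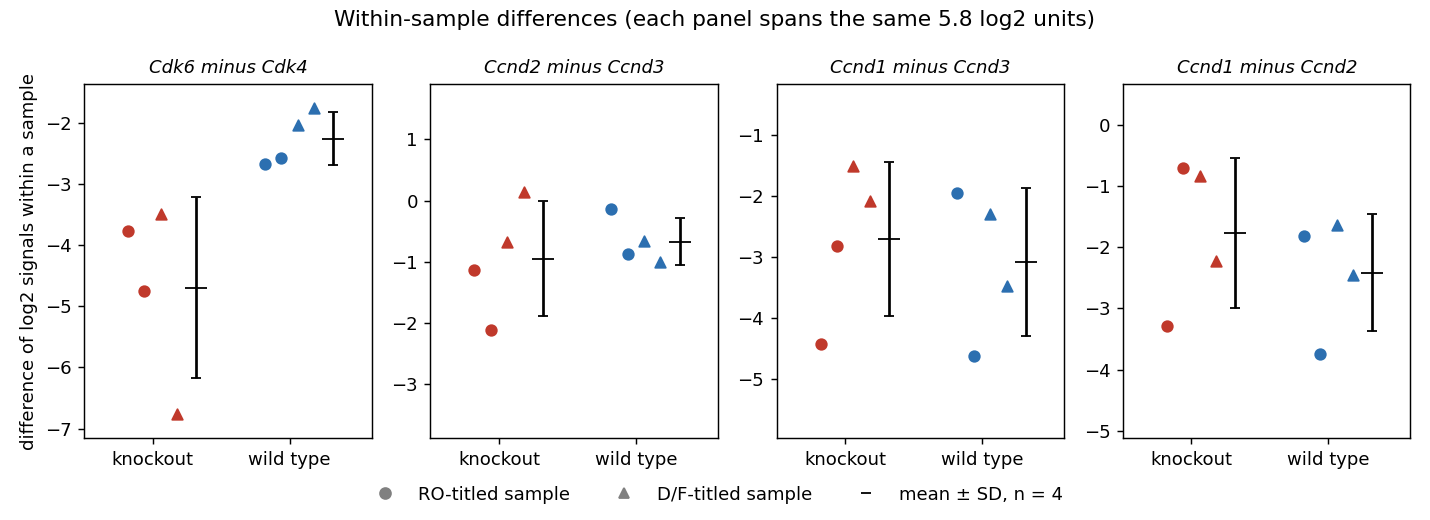
Difference of log2 signals within a sample (vertical axis, 5.8 log2 units in every panel) in knockout and wild-type samples, for Cdk6 minus Cdk4 and the 3 differences between D cyclins. Circles are RO and triangles D/F samples, bars are mean ± SD; only Cdk6 minus Cdk4 is without overlap, at -6.76 to -3.50 in knockout and -2.67 to -1.76 in wild-type samples.

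The pocket proteins overlapped between genotypes and varied more within wild type than within knockout. Rb1, which encodes pRB, had 10.03, 9.50, 9.70 and 9.59 in knockout and 8.63, 9.92, 9.39 and 10.38 in wild-type samples. Wild-type replicate 1 was the lowest and wild-type replicate 4 the highest of all 8. Rbl1, which encodes p107 and is itself a described E2F target, had 10.79, 11.18, 10.73 and 10.53 in knockout and 9.69, 10.95, 10.47 and 11.09 in wild-type samples. Rbl2, which encodes p130, the pocket protein of resting cells, had 8.79, 8.56, 8.83 and 8.89 in knockout and 8.13, 8.53, 8.75 and 9.05 in wild-type samples. The same wild-type replicate 1 was again the lowest for both. The log2 differences were 0.13 (SE 0.31) for Rb1, 0.26 (SE 0.28) for Rbl1 and 0.15 (SE 0.17) for Rbl2.

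Cdk2 was lowest on wild-type replicate 1 too, so 4 of the 9 members had their lowest signal there, as did 23.9% of all genes above the median signal. This array had a median of 7.41 and wild-type replicate 3 one of 7.42, the highest of the 8, against 7.17 and 6.99 for wild-type replicates 2 and 4. Without wild-type replicate 1 the differences were -0.21 for Rb1, -0.07 for Rbl1 and 0.03 for Rbl2. The part of array scaling in this was not tested. After quantile normalization the differences with all samples were 0.15, 0.23 and 0.25, and with arrays centred on their medians they were 0.30, 0.43 and 0.32. These are differences between group means, so they do not show what lowered wild-type replicate 1.

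**Figure D3:**
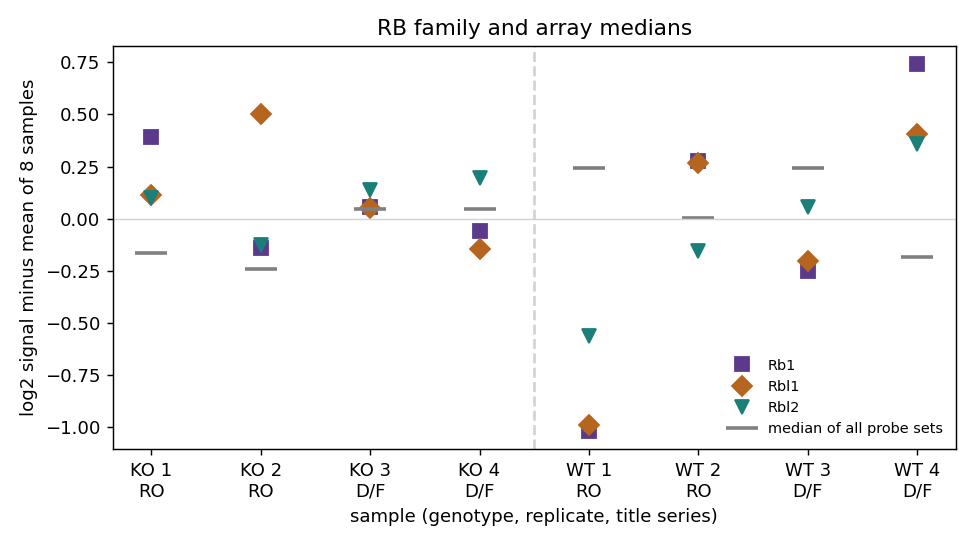
Log2 signal of Rb1, Rbl1 and Rbl2 minus the mean of each over the 8 samples (vertical axis), by sample (horizontal axis, knockout left of wild type), with the median of all probe sets of each array centred the same way (grey bars). Wild-type replicate 1 is the lowest sample for all 3 genes and has one of the highest array medians (7.41).

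The median log2 difference over all genes was -0.11, and 72.0% of all genes had a lower mean in knockout samples, or 56.0% of those above the median signal. Of the members, 3 of 9 (Cdk6, Cdk4 and Ccnd2) had a lower mean, and the median over the members was 0.06. The 8 members other than Cdk6 ran from -0.22 to 0.43, with unadjusted limma p from 0.365 to 0.766 and adjusted p from 0.878 to 0.933. With each array centred on its median the median over all genes was 0.06, Cdk6 was at -2.31 and Cdk4 at 0.13.

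The title series were compared next. Only Cdk6 had the same sign of difference in both, and the other 8 members had opposite signs, as did 55.9% of all genes. For Ccnd2 the difference was -0.92 in the RO samples, where knockout samples were 11.93 and 11.28 and wild-type samples 12.79 and 12.27. In the D/F samples it was 0.47, with 12.58 and 12.98 in knockout and 12.39 and 12.22 in wild-type samples. Neither series overlapped, and the order was the same with arrays centred on their medians and after quantile normalization. The limma interaction of genotype and title series was 1.395 (SE 0.35, unadjusted p = 0.00232), the single one of the 9 with an unadjusted p under 0.05, against 5.38% of all genes. Without wild-type replicate 2 there were 5 such members and 2325 such genes, and without wild-type replicate 3 there were 2 members and 4660 genes, against 1073 genes with all arrays. The Ccnd2 interaction did not pass over all genes (adjusted p = 0.715), where 0.0301% were called. Cdk4 also had opposite orders in the series as deposited (-0.24 in RO and 0.14 in D/F), but not after either rescaling. Opposite orders without overlap were found in 2 of 9 members and in 5.8% of all genes, and 3.67% had the knockout samples below in RO and above in D/F as these 2 members did. Within the RO samples 4 of 9 members did not overlap between genotypes, against 54.2% of all genes, and within the D/F samples 4 of 9, against 20.1%.

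D/F samples were also set against RO samples with genotype in the fit. The difference was 1.07 (SE 0.55) for Ccnd1, 0.47 (SE 0.27) for Ccnd2 and 0.37 (SE 0.17) for Rbl2. It was -0.12 (SE 0.56) for Cdk6 and lay between -0.05 and 0.25 for the other 5. No member passed (limma adjusted p = 0.9999), and 0 had an unadjusted p under 0.05, against 3.12% of all genes and 0.0201% called after adjustment. The title series overlapped for all 9 members, against 1.96% of all genes without overlap. Within the knockout samples Ccnd1 and Ccnd2 were higher in D/F than in RO samples by 1.64 and 1.17, without overlap. Within wild type they differed by 0.50 and -0.22, with overlap. In knockout samples 5 of 9 members did not overlap between title series, against 57.8% of all genes. In wild-type samples 3 of 9 (Cdk6, Cdk4 and Rbl2) did not overlap, against 19.3% of all genes.

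**Figure D4:**
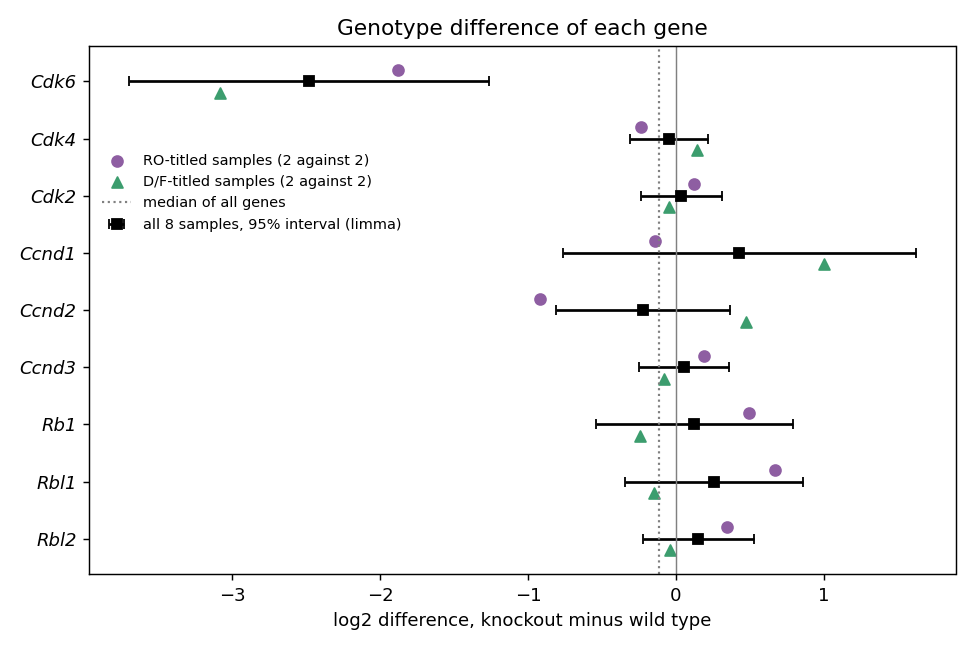
Log2 difference, knockout minus wild type (horizontal axis), for each of the 9 genes (vertical axis): squares with 95% intervals from all 8 samples, circles from RO and triangles from D/F samples, with the dotted line at the median of all genes (-0.11). Cdk6 is at -2.48, with -1.88 in RO and -3.09 in D/F, while the circle and the triangle of the other 8 genes lie on opposite sides of 0.

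Genes that act around the module were then counted, and 0 in any list passed over all genes by limma. Of 83 such genes measured, members left out, Cdkn2a and Tfdp2 were the 2 with an unadjusted limma p under 0.05, or 2.41%, close to the 2.25% of all genes. Of the CDK inhibitors, 5 of 6 measured had a lower mean in knockout samples, with a median of -0.11. Cdkn2a encodes INK4A, which binds CDK4 and CDK6, and ARF. It had 7.93, 7.83, 8.37 and 7.65 in knockout and 10.97, 8.13, 9.50 and 9.49 in wild-type samples, which overlapped, and its log2 difference was -1.58 (SE 0.46; -1.10 from group means without wild-type replicate 1). Cdkn1c, which encodes KIP2, had -0.29 (SE 0.21). Of the E and A cyclins with Cdc25a and Cdk1, 5 of 6 had a higher mean, with a median of 0.11. The cyclin E2 gene Ccne2 had 0.54 (SE 0.31), with 10.62 to 10.84 in knockout samples and 9.44, 10.64, 9.55 and 10.98 in wild-type samples. The low ones were wild-type replicates 1 and 3, the arrays of highest median. Cdc25a, a phosphatase that activates CDK2, had 0.21 (SE 0.18).

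Of E2F and DP genes, 4 of 10 were higher and 6 lower (median -0.04). Tfdp2, a dimer partner of E2F, had 0.42 (SE 0.19), and the repressor gene E2f6 had -0.90 (SE 0.47), with 6.15 in knockout replicate 3 against 8.35 to 9.11 in the other 7 samples. Of 19 measured E2F targets, Rbl1 among them, 14 were higher and 5 lower, with a median of 0.09, and Pcna, the sliding clamp, had 0.16 (SE 0.12). In that list the mean signal was 11.39 to 11.54 in knockout samples and 11.10 to 11.47 in wild-type samples, lowest on wild-type replicate 1. Of 9 measured proliferation markers, 3 were higher and 6 lower (median -0.04), with list means of 11.37 to 11.77 in knockout and 11.40 to 11.72 in wild-type samples. The mitotic kinase gene Aurkb had -0.12 (SE 0.11) and Bub1, of the spindle checkpoint, 0.25 (SE 0.29).

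Of genes that activate or fold CDKs, 4 of 5 measured were higher (median 0.06). Mnat1, the assembly factor of the CDK-activating kinase, lay between 8.55 and 8.71 in knockout and between 7.97 and 8.50 in wild-type samples, without overlap. It was the only gene without overlap among the 83 around the module, and 1.29% of all genes did not overlap in either direction (0.266% with knockout higher). The log2 difference of Mnat1 was 0.31 (SE 0.17). Ccnh, the cyclin of the same kinase, had 0.36 (SE 0.21). Of genes of D-cyclin and inhibitor turnover, 4 of 10 were higher (median -0.01), and Fbxo31, whose product targets cyclin D1, had -0.23 (SE 0.19) and Gsk3b, a kinase that marks D cyclins for decay, 0.20 (SE 0.18). The list for the DREAM complex held genes of the MuvB core, which DREAM unites with p130 or p107, and Mybl2, also counted among the E2F targets. In this list 4 of 6 were higher (median 0.06), with Lin37 at -0.23 (SE 0.15) and Lin54 at 0.16 (SE 0.17). Of described regulators of Cdk6 or D-cyclin transcription, 10 of 13 were lower (median -0.09), with Stat5a at -0.28 (SE 0.17) and Stat5b at -0.21 (SE 0.15). Of the genes described under CDK6 control in leukemia, 4 of 6 were lower (median -0.08), and after Cdkn2a came Akt1, a survival kinase gene, at -0.12 (SE 0.12).

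The genes with patterns most like those of the kinases and cyclins were sought among 4343 genes above the median signal with an SD of at least 0.25. Pearson correlations over the 8 arrays are given as a description, since the arrays share scaling and genotype. For Cdk6 the closest were Zmym6 (0.93), Tmem41a (0.91), Fgl2 (0.90), Ogfrl1 (0.89) and Hmox1, the heme oxygenase gene (0.89). Without the 2 arrays farthest from the Cdk6 median these 5 ranged from 0.31 to 0.75, so the likeness rested in part on those arrays. Ogfrl1 was at 9.94, 7.77, 8.35 and 6.07 in knockout samples, against 9.41 to 10.13 in wild-type samples. The most opposite were Lsm1 (-0.80), Pecam1 (-0.79) and Mgat4a (-0.78). Without the 2 arrays farthest from the Cdk6 median they fell to -0.58, 0.19 and -0.42, so that Pecam1 changed sign. For Cdk4 the closest were Rps6kl1 (0.97), the RNase P RNA Rpph1 (0.95) and Emc8 (0.94). For Ccnd1 they were Cdh17 (0.94), Vamp5 (0.94) and Pygm (0.93), with 0.835 to 0.863 without the 2 farthest arrays. For Ccnd2 they were Angptl4 (0.97), Pck2 (0.96) and Irf8, a transcription factor of B and myeloid cells (0.94), with 0.79 to 0.98. For Ccnd3 they were Ttc21b (0.93), the phosphatase gene Cdc14a (0.92) and Kcnk6 (0.92).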

How the data were processed

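RNA of 8 samples was hybridised to 1 array each. Per the labels' protocols it was extracted with Trizol, reverse transcribed from random hexamers, amplified and labelled with biotin. The authors deposited log2 signals for 34760 probe sets. MAS5 is named in the submitters' processing notes. It relies on mismatch probes, which the MoGene 1.0 ST array does not carry, so the summary step is uncertain, and no version or setting was at hand. Read from the deposited values, the linear mean with 2% trimmed at each end was 500 on every array. Such scaling can leave array medians unequal, and no detection calls were used, so low signals have an uncertain size of difference. The number of arrays limits the precision.

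Probe sets with 1 symbol in the platform annotation (21640) gave 19937 genes, by highest mean. A linear model of genotype and title series was fitted to the deposited log2 values (limma 3.58.1 under R 4.3.3, eBayes with trend) and adjusted by Benjamini-Hochberg over all genes at 0.05. The same functions gave the interaction. The code was tested on simulated data. Likeness was Pearson correlation. The rule named all members, Jun, 2 genes of smallest p per list and the closest patterns. The members and lists were chosen with earlier results of these data known. The alternatives were other scalings, designs, filters, variance models and left-out arrays. Pseudocounts do not apply to log2 values. Sequence windows are from RefSeq.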

Additional observations from a re-analysis of the deposited data

Results flagged for a closer look

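For Ccnd2 every knockout sample lay below every wild-type sample in the RO series and above them in the D/F series. The difference in D/F minus that in RO was 1.395 (limma interaction SE 0.35, adjusted p = 0.715 over all genes), against a median of 0.26 over all genes. With 1 array left out it ran from 1.07 to 1.72. For Cdk4 the order was opposite in the same way, with an interaction of 0.38 (SE 0.20, adjusted p = 0.716), and it was not opposite with arrays centred on their medians or after quantile normalization. A search for single outlying samples covered 26 groups of 4 (9 genes and 4 within-sample differences in each genotype). It set the gap to the next value, as a share of the range, against Dixon's critical value of 0.829 for 4 values. By this rule 0 stood out, including knockout replicate 4 for Cdk6. With 4 values only an extreme gap passes, so the search cannot show that knockout replicate 4 was ordinary.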

How the results depend on the processing

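Cdk6 was lower in knockout samples in all 20 alternatives, from -3.09 to -1.70, and passed the threshold only with D/F samples alone (-3.09), where 1 of the 9 members was called. With 1 array left out it ran from -3.03 to -1.70. Over all genes 1 was called (449 at an unadjusted limma p under 0.05). The count was 0 with arrays centred (652 unadjusted), 0 among genes above the median signal (231 unadjusted), 2 with array weights (3203 unadjusted), 32 with RO samples alone, 79 with D/F samples alone, and 0 to 2 with 1 array left out. The unadjusted counts then ran from 257 to 4863, the highest without wild-type replicate 4. It was 4 without wild-type replicates 1 and 3, an alternative chosen after seeing the data. With 1 array left out, also chosen then for these, title series calls ran from 0 to 18 (4 with all arrays) and interaction calls from 6 to 38 (6 with all), with 0 to 1 among the members. Cdk6 minus Cdk4 kept its sign in 12 of 12 alternatives. That adds little to the sign of Cdk6 itself, since Cdk4 spanned only 0.43 log2 units over all samples. Ccnd2 minus Ccnd3 was -1.11 for RO samples, 0.56 for D/F samples and -0.64 to 0.11 with 1 array left out.

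Small differences changed sign. D/F samples alone gave 0.14 for Cdk4, -0.044 for Cdk2, 0.47 for Ccnd2, -0.083 for Ccnd3, -0.24 for Rb1, -0.15 for Rbl1 and -0.041 for Rbl2, and RO samples alone gave -0.14 for Ccnd1. Without wild-type replicates 1 and 3 Cdk4 was at 0.053, Ccnd3 at -0.044, Rb1 at -0.445, Rbl1 at -0.21 and Rbl2 at -0.024, and Ccnd1 kept its sign at 1.29. Cdk4 was at 0.13 with arrays centred, Cdk2 at -0.011 with array weights and Ccnd3 at -0.0050 after quantile normalization. With 1 array left out the ranges were -0.12 to 0.032 for Cdk4, -0.011 to 0.084 for Cdk2, 0.056 to 1.03 for Ccnd1, -0.44 to 0.045 for Ccnd2, -0.040 to 0.17 for Ccnd3, -0.21 to 0.40 for Rb1 and -0.074 to 0.46 for Rbl1. The cause was not tested. No pseudocount was varied, since the values are log2, and 4 arrays per genotype limit the precision.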
